A study of Mus musculus with 109 samples.

Results

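Chemokines, their receptors and the cytokines that act beside them were read in mouse lung after long exposure to cigarette smoke. The gene family was defined as 44 named genes: 28 chemokines, 9 chemokine receptors and 7 cytokines or growth factors. They were found by gene symbol on a bead array of 25697 probes, where 54 probes carried their names. A probe was used when its signal stood above background, with a detection p-value below 0.01, on at least 6 arrays. By that rule 45 probes of 37 members were kept, out of 11346 genes or unnamed probes tested in all, and the choice used no comparison between groups.

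Total RNA of whole lung was hybridised to 1 array per sample. The labels form 8 groups, and each tested comparison lies between groups of those labels. Smoke groups breathed mixed main-stream and side-stream smoke of research cigarettes on 5 days a week for 6 months, and air groups breathed filtered air. The Hhip+/- mice, heterozygous for Hhip, an inhibitor of Hedgehog ligands, gave 14 smoke and 12 air arrays. Fam13a-/- mice lack Fam13a, a gene at a human COPD risk locus, and gave 13 smoke and 6 air arrays. Wild-type NZW/LacJ mice, another inbred strain, gave 6 smoke and 8 air arrays. Wild-type C57BL/6J mice, the strain that the others were set against, gave 28 smoke and 22 air arrays. The strain label of the Hhip+/- and Fam13a-/- arrays, like that of the wild type, is C57BL6. The labels give neither age nor sex, nor whether each array of a group stands for an animal of its own. The p-values therefore rest on the spread among these arrays, which may be technical.

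Chemokines are small secreted proteins that draw leukocytes along gradients through receptors coupled to G proteins. CC chemokines mostly call monocytes, lymphocytes and eosinophils, many CXC chemokines call neutrophils, and others place lymphocytes in lymphoid tissue. Several receptors bind more than 1 ligand, and a group of atypical receptors removes ligands without signalling. Colony-stimulating factors keep macrophages alive and mature: alveolar macrophages depend on Csf2, also called GM-CSF, which alveolar type 2 cells supply.

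The promoters of 5 members on which the results below turn are printed for reference, from RefSeq on the GRCm38.p6 build. Each holds 250 bases before and 50 after the annotated start, 5′ to 3′ on the gene's strand. Capitals mark matches on either strand to the kappaB form searched, which is GGG, then 2 bases of any kind, then TTTCC, and is bound by NF-kappaB, or to TATAAA, the TATA box; the matches shown do not overlap. Csf1 lies at chr3:107760420-107760719 on the minus strand and Cxcl1 at chr5:90890995-90891294 on the plus strand. Cxcl12 is at chr6:117168285-117168584 on the plus strand, Ccl6 at chr11:83593038-83593337 and Ccl3 at chr11:83649329-83649628, both on the minus strand.
Csf1: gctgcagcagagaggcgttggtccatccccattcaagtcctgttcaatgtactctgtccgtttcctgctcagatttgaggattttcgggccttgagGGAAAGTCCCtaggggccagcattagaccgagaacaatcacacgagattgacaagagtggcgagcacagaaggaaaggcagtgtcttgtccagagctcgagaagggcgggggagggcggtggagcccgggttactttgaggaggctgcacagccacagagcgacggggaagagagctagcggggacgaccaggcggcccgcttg
Cxcl1: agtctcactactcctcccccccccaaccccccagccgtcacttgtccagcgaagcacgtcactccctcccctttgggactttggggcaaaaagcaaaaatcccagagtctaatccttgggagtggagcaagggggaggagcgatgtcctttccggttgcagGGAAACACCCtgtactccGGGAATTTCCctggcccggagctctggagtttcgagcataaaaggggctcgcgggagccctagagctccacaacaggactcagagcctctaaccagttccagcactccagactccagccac
Cxcl12: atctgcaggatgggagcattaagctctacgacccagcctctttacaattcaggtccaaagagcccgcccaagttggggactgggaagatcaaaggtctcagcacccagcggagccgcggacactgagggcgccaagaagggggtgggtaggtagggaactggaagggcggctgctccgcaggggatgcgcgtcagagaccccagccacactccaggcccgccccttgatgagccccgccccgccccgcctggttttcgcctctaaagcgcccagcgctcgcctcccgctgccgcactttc
Ccl6: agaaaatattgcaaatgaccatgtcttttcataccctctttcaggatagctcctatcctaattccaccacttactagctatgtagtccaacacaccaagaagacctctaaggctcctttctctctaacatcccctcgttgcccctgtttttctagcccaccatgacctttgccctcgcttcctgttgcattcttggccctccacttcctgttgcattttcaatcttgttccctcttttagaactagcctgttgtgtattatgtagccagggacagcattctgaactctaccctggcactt
Ccl3: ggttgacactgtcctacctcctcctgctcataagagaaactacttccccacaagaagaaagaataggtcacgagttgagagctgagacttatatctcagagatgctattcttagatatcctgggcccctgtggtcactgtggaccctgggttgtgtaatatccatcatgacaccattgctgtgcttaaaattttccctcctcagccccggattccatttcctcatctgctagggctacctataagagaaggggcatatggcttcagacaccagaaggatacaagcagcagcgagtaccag
The Csf1 window matched the kappaB form once, at position -154 counted from the start, read as GGAAAGTCCC on the gene's strand. In the Cxcl1 window it matched at -89 and at -71, as GGAAACACCC and GGGAATTTCC. Among all 32851 promoter windows of this length, 1.63% held the kappaB form, against 6 of the 32 members with a window, which are Ccl9, Ccl20, Csf1, Cxcl1, Cxcl2 and Il6. TATAAA stood in 13.6% of all windows and in 10 of those 32, and one more motif, TTC and GAA with 3 bases of any kind between them, in 8.3% and in 3. The motifs were chosen with the results known, and a match describes letters, not binding.

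Array-wide measures came first. Array medians of the deposited signal ran from 66.1 to 144.5 units, and the share of detected probes ran from 36% to 53.9%, under 45% on 4 arrays. Sftpc, which defines alveolar type 2 cells, read 13.23 to 15.05 log2 units over all arrays. The median of Nqo1, an oxidant-response gene and a known mark of smoke exposure, was 7.90 in Hhip+/- smoke, against 5.88 in Hhip+/- air, 7.75 in Fam13a-/- smoke, against 5.72 in Fam13a-/- air, 7.65 in NZW/LacJ smoke, against 5.90 in NZW/LacJ air, and 8.28 in C57BL/6J smoke, against 5.97 in C57BL/6J air. Of the targeted genes, Hhip read 5.94 to 7.23 in Hhip+/- smoke, against 5.51 to 7.39 in C57BL/6J smoke, a difference of -0.03 (limma adjusted p = 0.943). Fam13a read 4.59 to 6.22 in Fam13a-/- smoke, where 7 of 13 arrays detected it, against 4.98 to 7.26 in C57BL/6J smoke, a difference of -0.64 (limma adjusted p = 0.146). Where either probe lies relative to the altered part of its gene was not established here, so neither checks the labels.

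Of the NZW/LacJ arrays, 2 went against their label. On a scale of the 50 genes that were lowest in NZW/LacJ air relative to C57BL/6J air, with C57BL/6J near 0 and NZW/LacJ near 1, smoke replicate 5 scored 0.01 and air replicate 5 scored 0.10. The other 12 scored 0.82 to 1.09, and C57BL/6J arrays scored -0.06 to 0.07. H2-Ea, a class II histocompatibility gene, read 4.74 on the library labelled NZW/LacJ smoke replicate 5 and 4.37 on that labelled air replicate 5, against at least 9.09 on the other 12. C57BL/6J smoke replicate 6 read 8.03 for H2-Ea, against 4.28 to 4.99 on the other C57BL/6J arrays, although it scored 0.00 on the strain scale. Left out in a refit added after the data were examined, it changed none of 7 counts of members called. The NZW/LacJ results are given with and without the 2 libraries.

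The members were unevenly visible. Every array detected 17 of them, among them the epithelial chemokine Cxcl15, the lymphoid chemokines Ccl21a, Cxcl12, Cxcl13 and Ccl19, Ccl5, Ccl9, Cxcl14, Cxcl16, Cx3cl1, the receptors Cxcr4, Cxcr5 and Cx3cr1, and the cytokines Il1b and Il18. The 7 with no kept probe were Ccl20, Ccl22, Cxcl5, Cxcl11, Ccr1, Ccr2 and Il6, so neither the Ccl2 receptor nor the Ccr6 ligand could be followed. Ccl20, Cxcl11, Ccr1 and Ccr2 were detected on no array. A further 5, Ccl2, Ccl24, Cxcr6, Tnf and Il10, passed on under 30 arrays. Values below are normalized log2 signals, differences are smoke minus air or the named strain or genotype minus C57BL/6J wild type, errors are standard errors, and a call means a limma adjusted p below 0.05 over all genes tested.

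Of the 37 members, 1 was called between smoke and air within any strain or genotype. In C57BL/6J wild type, with the most arrays, no member was called between smoke and air, where 0.952% of all genes were; 3 had an unadjusted p below 0.05. In Hhip+/- none was called against 0.247% of all genes, with 4 below 0.05. In Fam13a-/- 1 of 37 was called, Cxcl12, which fell, against 0.864% of all genes called lower and 2.18% in either direction. In NZW/LacJ none was called against 0.987% of all genes, with 1 below 0.05. The median member difference was -0.07 in C57BL/6J, 0.063 in Hhip+/-, -0.175 in Fam13a-/- and -0.015 in NZW/LacJ, and that of all genes was between -0.047 and -0.003. In simulated data, limma recovered 99.5% of genes changed by 1 log2 unit between C57BL/6J smoke and air, 95% in Hhip+/-, 93.5% in Fam13a-/- and 86.5% in NZW/LacJ. Smaller changes were not simulated, and the largest member difference in size was 0.434 in C57BL/6J and 0.797 in NZW/LacJ. The simulated spread was independent between genes, while 1 component held 20.6% of the variance within groups of the real arrays.

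**Figure D1:**
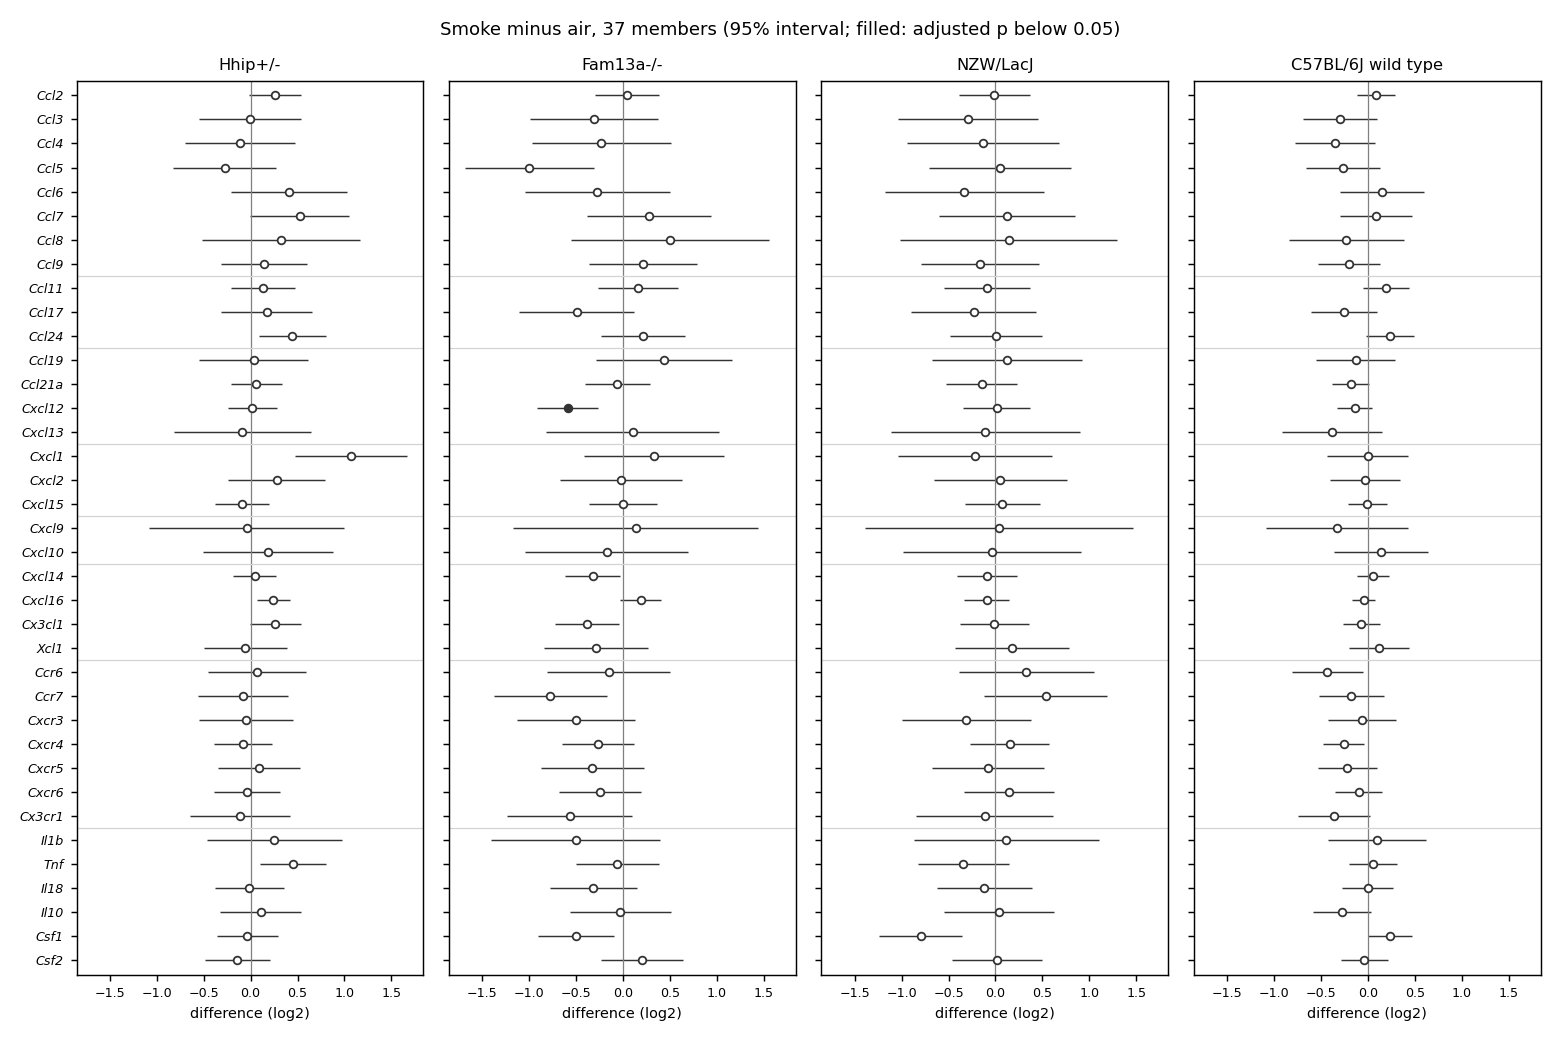
Smoke minus air difference of the 37 kept members in log2 units, with 95% intervals from limma, in each of the 4 strain or genotype units. The 1 call within a unit is Cxcl12 in Fam13a-/-, at -0.59, the filled mark, and the largest positive value is Cxcl1 in Hhip+/-, at 1.07; marks of members that a whole group failed to detect, such as Tnf in Hhip+/-, are fitted values and no measured difference.

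Cxcl12, which holds leukocytes and progenitors near stromal and endothelial cells through Cxcr4, was the 1 member called lower with smoke within a genotype. In Fam13a-/- smoke it read 10.81, 11.45 and 12.07 (lowest, median and highest), against 11.56, 12.01 and 12.40 in Fam13a-/- air. The ranges overlapped, and 12 of 13 smoke arrays lay below the air mean. The difference was -0.59 ± 0.17, a 1.51-fold lower signal (limma adjusted p = 0.0344, 95% interval -0.92 to -0.26). C57BL/6J read 11.12, 11.94 and 12.41 in smoke, against 10.96, 12.08 and 12.99 in air, a difference of -0.14 ± 0.10 (adjusted p = 0.773), and the difference between the 2 smoke effects was -0.45 (adjusted p = 0.306). Set directly against C57BL/6J smoke, Fam13a-/- smoke was lower by a log2 difference of -0.45 ± 0.11, or 1.37-fold (adjusted p = 0.00604), on 11 of 13 arrays, and it was the 1 member called there, against 2.46% of all genes called lower and 6.19% in either direction. Fewer cells of a type and less RNA per cell cannot be told apart in whole lung.

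The probes of Cxcl12 disagreed. The other 2 kept probes gave -0.17 ± 0.24 (adjusted p = 0.801) and 0.42 ± 0.25 (adjusted p = 0.429) for smoke in Fam13a-/-, and -0.19 ± 0.16 and 0.13 ± 0.17 for Fam13a-/- against C57BL/6J smoke. Of 4 kept endothelial markers on a list of 6, 1 was lower with smoke in Fam13a-/-, and their summed level was 12.47, 13.12 and 13.54 in smoke, against 13.12, 13.41 and 13.67 in air. Heart muscle markers, 4 kept of 5, summed to 10.66, 13.04 and 13.59 in Fam13a-/- smoke, against 9.51, 12.08 and 12.89 in C57BL/6J smoke, with 2 of 4 higher. Adipocyte markers, 3 kept of 4, summed to 7.79, 8.99 and 9.72 in Fam13a-/- smoke, against 7.45, 8.27 and 9.18 in C57BL/6J smoke. Of these 3 markers, 2 were higher. In Fam13a-/- air the heart muscle sums had a median of 11.55 and a highest value of 12.67. The adipocyte sums there had a median of 8.46 and a highest value of 8.68. The part of these tissues in either Cxcl12 difference was not tested. The call for smoke within Fam13a-/- ended under median scaling (-0.70, adjusted p = 0.366), without a filter on dim probes (adjusted p = 0.0513) and with the compared groups fitted alone (adjusted p = 0.0676). It also ended without air replicate 1 (adjusted p = 0.144), 2 (0.157), 3 (0.0598) or 6 (0.056), or smoke replicate 1 (0.0605), 2 (0.0502), 4 (0.0547), 6 (0.0567) or 11 (0.0504), at -0.62 to -0.52, and the call against C57BL/6J smoke ended under median scaling (-0.56, adjusted p = 0.118).

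Other members missed the threshold in Fam13a-/-. Ccl5, a chemokine of T cells and natural killer cells, read 8.01, 10.32 and 11.25 in smoke, against 10.78, 11.10 and 11.72 in air, a difference of -0.998 ± 0.347 (adjusted p = 0.104). Ccr7, which guides dendritic cells and T cells to lymph nodes, differed by -0.78 (adjusted p = 0.157), with all 13 smoke arrays below the air mean, and Csf1 by -0.50 (adjusted p = 0.18). Ccl8, a monocyte-attracting CC chemokine, read 6.73, 8.34 and 9.55 in Fam13a-/- smoke, against 5.80, 7.30 and 9.48 in C57BL/6J smoke, a difference of 1.09 ± 0.36 that missed the threshold (adjusted p = 0.0517). In air, no member was called between Fam13a-/- and C57BL/6J, nor was any gene (0% of all genes). The 3 smallest p-values there belonged to Csf1, at 0.52 ± 0.19 (adjusted p = 0.612), Csf2, at -0.47 ± 0.21 (adjusted p = 0.775), and Ccl5, at 0.66 ± 0.32 (adjusted p = 0.818).

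Cxcl1, which draws neutrophils through Cxcr2, had the smallest p-value of the family for smoke in Hhip+/-. It read 5.95, 7.42 and 8.95 in Hhip+/- smoke, against 5.52, 6.19 and 7.52 in Hhip+/- air. The ranges overlapped, although 13 of 14 smoke arrays lay above the air mean. The difference of 1.07 ± 0.30, or 2.10-fold (95% interval 0.48 to 1.67), did not pass over all genes (unadjusted p = 0.000549, limma adjusted p = 0.12), and passed only with array weights among the alternatives (1.34, adjusted p = 0.00043). C57BL/6J smoke read 5.48, 6.83 and 9.15, against 5.64, 6.56 and 9.29 in C57BL/6J air, a difference of 0.00 ± 0.22. The smoke effects differed by 1.07 ± 0.37 (unadjusted p = 0.00469, adjusted p = 1), and 0% of all genes were called in that comparison. The promoter printed above holds 2 matches to the kappaB form.

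Cxcl16, a membrane-bound ligand of Cxcr6, and the inflammatory cytokine Tnf followed in Hhip+/-. Cxcl16 differed by 0.24 ± 0.09 (adjusted p = 0.469). No Hhip+/- air array detected Tnf and 6 of 14 smoke arrays did, so no size is given (adjusted p = 0.611). In C57BL/6J the 3 smallest p-values belonged to Cxcr4, the Cxcl12 receptor, at -0.26 ± 0.11 (adjusted p = 0.488), to Ccr6, the Ccl20 receptor of B cells and some T cells, at -0.43 ± 0.19 (adjusted p = 0.503), and to Csf1, at 0.24 ± 0.12 (adjusted p = 0.592).

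Between genotypes, smoke-exposed Hhip+/- lungs carried more Ccr6 signal. Ccr6 read 6.01, 7.62 and 9.99 in Hhip+/- smoke, against 5.67, 6.77 and 8.29 in C57BL/6J smoke. The ranges overlapped, and 12 of 14 Hhip+/- arrays lay above the C57BL/6J mean. At 0.83 ± 0.22, or 1.78-fold (95% interval 0.40 to 1.26), it was the 1 member called (limma adjusted p = 0.0257), against 0.978% of all genes called higher and 1.87% in either direction. Differences were positive for 32 of 37 members there, with a median of 0.249 against -0.007 for all genes. The fractalkine receptor Cx3cr1, found on monocytes and some macrophages, read 5.97, 8.31 and 8.85 in Hhip+/- smoke, against 6.09, 7.29 and 9.36 in C57BL/6J smoke, a difference of 0.73 ± 0.22 just short of the threshold (adjusted p = 0.0594). Cxcr5, the receptor that leads B cells into follicles, differed by 0.44 ± 0.18 (adjusted p = 0.212).

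A second Ccr6 probe gave 0.44 ± 0.17 (adjusted p = 0.186), and 2 further Cxcr5 probes gave 0.53 ± 0.21 (adjusted p = 0.187; detected on 100 arrays) and 0.45 ± 0.12 (adjusted p = 0.0286; detected on 13 arrays). B cell markers, 5 kept of 8, summed to 10.63, 11.23 and 13.09 in Hhip+/- smoke, against 9.21, 11.08 and 11.82 in C57BL/6J smoke, with 0 of 5 called. All 5 differences were positive, with a median of 0.391, against -0.007 for all genes. T and natural killer cell markers, 6 kept of 9, were positive for all 6, with a median of 0.292 and 0 called. The part of these cells in the Ccr6 difference was not tested. The Ccr6 call ended under median scaling (0.73, adjusted p = 0.15) and without Hhip+/- smoke replicate 4 (0.79, adjusted p = 0.0531), 6 (0.78, adjusted p = 0.0567) or 9 (0.65, adjusted p = 0.0964). In air, no member was called between Hhip+/- and C57BL/6J, against 0.0617% of all genes. The smallest p-values there were those of Cxcl12, at -0.29 ± 0.12 (adjusted p = 0.468), Csf1, at 0.34 ± 0.15 (adjusted p = 0.518), and Tnf, which no Hhip+/- air array detected (adjusted p = 0.583). Ccr6 differed by 0.323 in air. Its smoke effect in Hhip+/- minus that in C57BL/6J, 0.507, was not called.

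**Figure D2:**
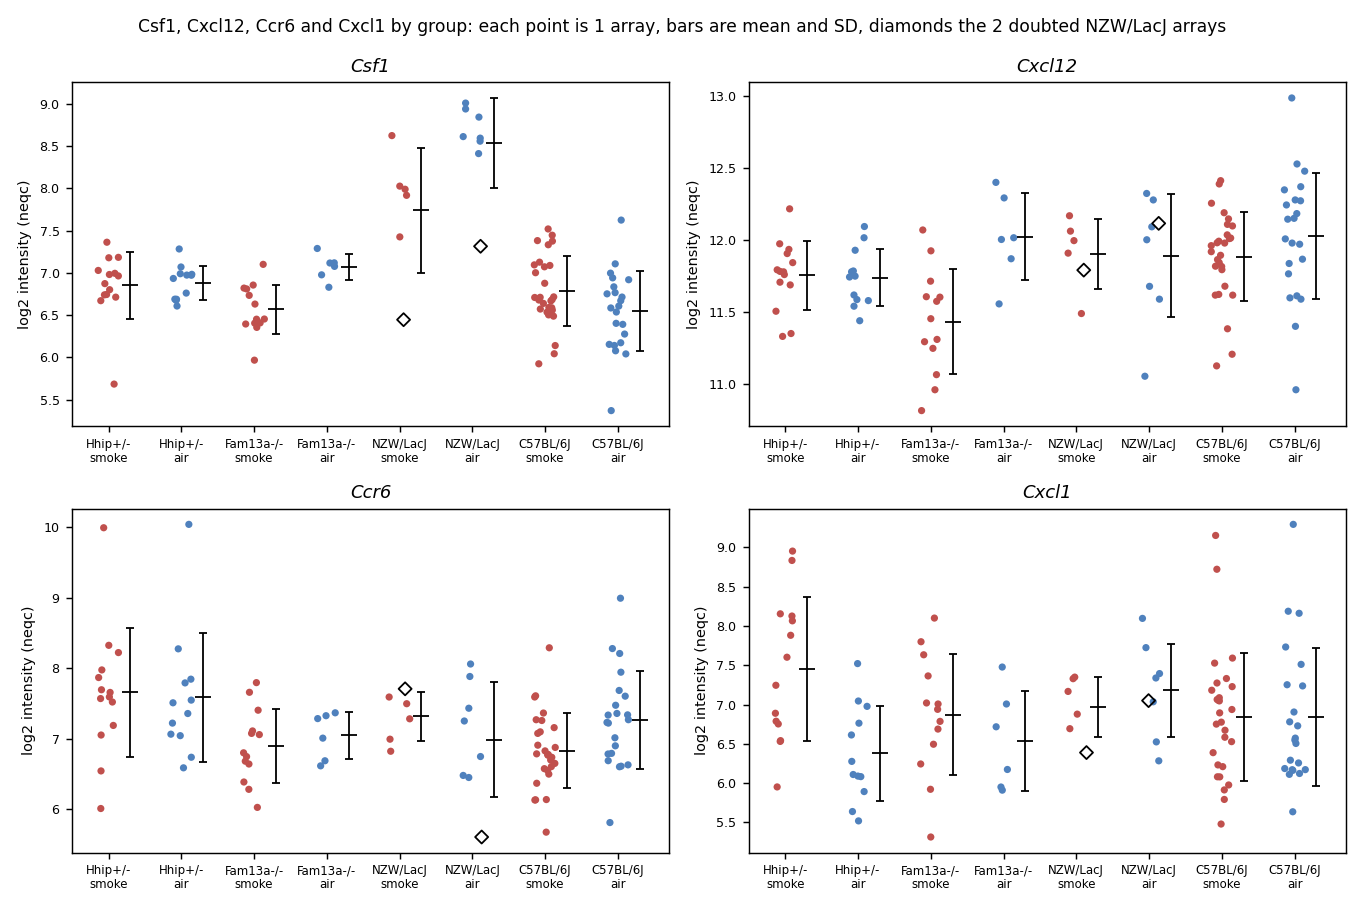
Normalized log2 signal of Csf1, Cxcl12, Ccr6 and Cxcl1 on each array, by strain or genotype, with smoke left of air; bars mark the mean and SD of each group, and diamonds the 2 doubted NZW/LacJ arrays. Csf1 stands highest in NZW/LacJ, where its medians are 7.96 in smoke and 8.61 in air, and the ranges of the other genes overlap between all groups.

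Csf1, the growth factor that macrophages and their precursors need through Csf1r, was the 1 member whose smoke effect was called different from that of C57BL/6J. NZW/LacJ read 6.45, 7.96 and 8.63 in smoke, against 7.32, 8.61 and 9.01 in air. C57BL/6J read 5.92, 6.70 and 7.52 in smoke, against 5.37, 6.60 and 7.63 in air. Within NZW/LacJ the difference was -0.80 ± 0.22, lower on 5 of 6 arrays, and just missed the threshold (adjusted p = 0.0507), while within C57BL/6J it was 0.24 ± 0.12. The difference between these smoke effects was -1.04 ± 0.25 (limma adjusted p = 0.0403, 95% interval -1.54 to -0.54), against 0.238% of all genes called lower and 0.414% in either direction. Without the 2 doubted libraries it was -0.95 ± 0.24 (adjusted p = 0.0192, 1.75% of all genes called), from 7.43, 7.99 and 8.63 in smoke, against 8.41, 8.61 and 9.01 in air, and the difference within NZW/LacJ was -0.71 ± 0.22 (adjusted p = 0.0526).

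In Fam13a-/-, the smoke effect on Csf1 minus that of C57BL/6J was not called, at -0.74 ± 0.24 (unadjusted p = 0.0022, adjusted p = 0.157, 0.0529% of all genes called). Cxcl12 and Cxcl14 had the next smallest p-values there, at -0.45 (adjusted p = 0.306) and -0.38 (adjusted p = 0.338). Fam13a-/- read 5.97, 6.46 and 7.10 for Csf1 in smoke, against 6.83, 7.10 and 7.29 in air. The array numbers of the titles run on through the groups, and 6 NZW/LacJ arrays, 4 smoke and 2 air, carry the numbers 36 to 41. Within them Csf1 averaged 8.02 in smoke and 8.89 in air, and among the other undoubted arrays it read 7.92 on 1 smoke array and averaged 8.64 on 5 air arrays. The NZW/LacJ call ended under median scaling (-1.15, adjusted p = 0.185), and, as a separate setting, with the compared groups fitted alone (-1.04, adjusted p = 0.138). It ended as well without the 2 doubted libraries once numbers 36 to 41 were a term (-1.05, adjusted p = 0.0758). It also ended without smoke replicate 1 (-1.09, adjusted p = 0.0864), 2 (-0.97, 0.182), 3 (-1.09, 0.0625) or 5 (-0.78, 0.0571), or air replicate 2 (-0.97, 0.0717), 6 (-1.03, 0.0723) or 8 (-1.03, 0.064), and the difference within NZW/LacJ passed without smoke replicate 4 (-0.98, 0.0176) or 6 (-0.83, 0.0213) or air replicate 5 (-0.97, 0.00906).

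Far more members were called between the strains than between smoke and air, and the same held for all genes. In air, 19 of 37 members (51.4%) were called between NZW/LacJ and C57BL/6J, 4 higher and 15 lower, where 43.3% of all genes were called, 24.8% higher and 18.5% lower. In smoke, 18 (48.6%) were called, 4 higher and 14 lower, where 50.7% of all genes were called, 25.8% higher and 24.9% lower. The share of members called was thus near that of all genes in smoke. The median member difference was -0.277 in air and -0.198 in smoke, beside 0.052 and 0.014 for all genes. Among the called members were macrophage inflammatory proteins, epithelial Cxcl15, Il18, Il1b and Csf2, all lower in NZW/LacJ, while Csf1, Cxcl14 and Ccl7 were higher. Of the members called between the strains, all but Ccl4 and Cxcl14 were each read by 1 kept probe, Csf1 and Csf2 among them. Whether the strains differ in sequence under a probe, and so in its signal, was not tested. Without the 2 doubted libraries the counts were 20 in smoke (56.9% of all genes), 5 of them higher, and 19 in air (46.7%), 4 of them higher. The strains' ranges overlapped for every member with all arrays, where 0.185% of all genes did not overlap in smoke and 0.502% in air. Without the doubted libraries they did not overlap for 6 members in smoke (7% of all genes) and 3 in air (3.45%).

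**Figure D3:**
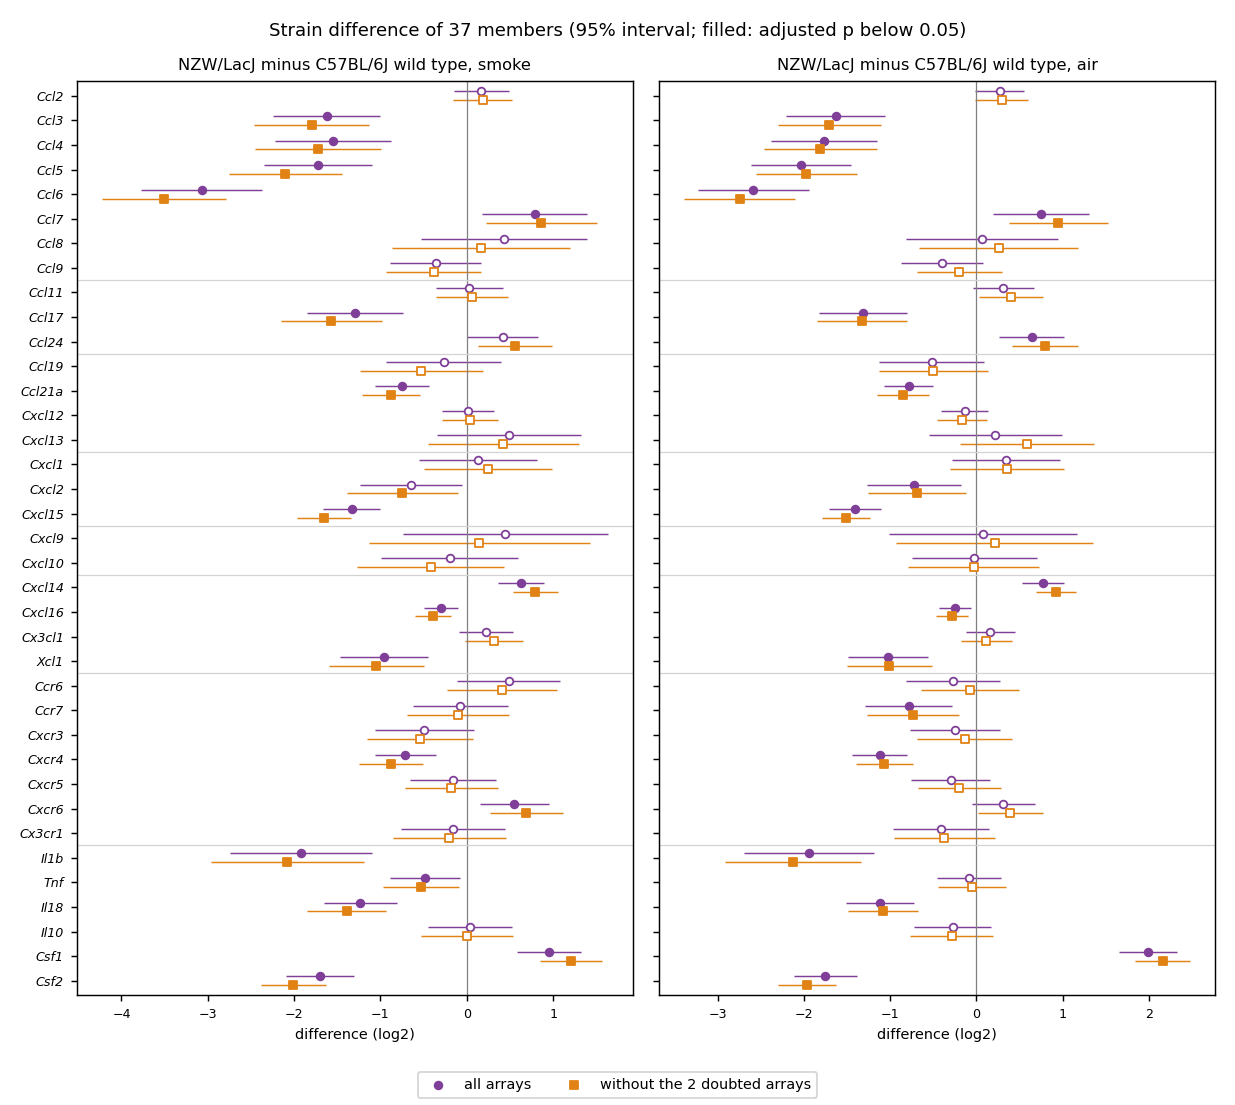
NZW/LacJ minus C57BL/6J difference of the 37 kept members in log2 units with 95% intervals from limma, in smoke (left) and in air (right), with all arrays (circles) and without the 2 doubted libraries (squares); filled marks passed the threshold. With all arrays Ccl6 has the most negative values, -3.07 in smoke and -2.59 in air, and Csf1 the most positive, 0.95 in smoke and 1.99 in air; the marks of Cxcl2 and Xcl1 in both, Tnf in smoke and Ccl24 in air are fitted values, since a whole group failed to detect them.

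Among the monocyte and macrophage attracting CC chemokines, 4 of 8 were lower and 1 higher in each exposure. Of all genes, 24.9% were called lower and 25.8% higher in smoke, and 18.5% lower and 24.8% higher in air. Ccl6, made by macrophages and neutrophils in mice, read 5.30, 6.03 and 8.47 in NZW/LacJ smoke, against 7.62, 9.42 and 10.40 in C57BL/6J smoke. In air it read 5.31, 6.23 and 8.74 in NZW/LacJ, against 8.03, 9.09 and 11.96 in C57BL/6J. It lay below the C57BL/6J mean on all 6 smoke and all 8 air arrays, 8.39-fold lower in smoke (-3.07 ± 0.35, limma adjusted p = 4.18e-12) and 6.01-fold lower in air (-2.59 ± 0.33, adjusted p = 9.01e-11). Without the doubted libraries the smoke ranges did not overlap, at 5.30 to 6.19 in NZW/LacJ, and the differences were -3.51 in smoke and -2.75 in air.

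Ccl3 and Ccl4, both macrophage inflammatory proteins, were also lower. Ccl3 read 4.78, 5.07 and 6.04 in NZW/LacJ smoke, against 5.70, 6.68 and 8.02 in C57BL/6J smoke, and 5.10, 5.50 and 5.99 in NZW/LacJ air, against 5.29, 7.15 and 9.08 in C57BL/6J air. It was detected on 1 of 6 and 4 of 8 NZW/LacJ arrays. The fold was 3.08 lower in smoke (adjusted p = 8.51e-06) and 3.10 lower in air (adjusted p = 1.76e-06). Without the doubted libraries no NZW/LacJ smoke array detected it, which gives a bound of at least 2.41-fold lower, and those ranges did not overlap. Ccl4 differed by -1.55 ± 0.34 in smoke (adjusted p = 8.13e-05) and -1.77 ± 0.31 in air (adjusted p = 1.97e-06), and a second probe by -1.11 ± 0.32 (adjusted p = 0.00227) and -1.56 ± 0.29 (adjusted p = 6.27e-06). Ccl4 was also called without the doubted libraries, at -1.72 in smoke and -1.81 in air.

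Ccl5 read 7.46, 8.31 and 10.42 in NZW/LacJ smoke, against 8.73, 10.32 and 11.12 in C57BL/6J smoke, 3.31-fold lower (adjusted p = 3.12e-06). Its air values were 7.86, 8.51 and 9.35 in NZW/LacJ, against 8.54, 10.71 and 11.38 in C57BL/6J, 4.10-fold lower (adjusted p = 6.57e-09). Ccl5 was 4.29-fold lower in smoke and 3.93-fold lower in air without the doubted libraries. Ccl7, a monocyte chemoattractant, went the other way, at 0.79 ± 0.31 in smoke (adjusted p = 0.0256) and 0.75 ± 0.28 in air (adjusted p = 0.024), and at 0.86 and 0.95 without the doubted libraries, both called. The Ccl7 call ended in smoke without NZW/LacJ smoke replicate 1 (0.48, adjusted p = 0.224), 2 (0.77, 0.0524), 3 (0.69, 0.0829) or 4 (0.74, 0.0559), and in air without NZW/LacJ air replicate 3 (0.48, 0.174), 4 (0.68, 0.0571) or 8 (0.69, 0.0512). Ccl2, Ccl8 and Ccl9 were not called in either exposure. On chromosome 11 of the RefSeq gene table, Ccl5, Ccl9, Ccl6, Ccl3 and Ccl4 follow each other with no other protein-coding gene between them, and 26 protein-coding genes separate them from the cluster of Ccl2, Ccl7, Ccl11 and Ccl8. Of the 5 neighbours, all but Ccl9 were lower in NZW/LacJ, and none of the 4 members of the other cluster was, where 24.9% of all genes were called lower in smoke and 18.5% in air. Ccl12, a further ligand of that cluster named after its values were seen, was lower by -0.82 in smoke (adjusted p = 0.0172) and -0.73 in air (adjusted p = 0.0232); without the doubted libraries the air call ended (-0.61, adjusted p = 0.0692).

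The neutrophil-attracting group was led by Cxcl15, also called lungkine, a chemokine of the mouse lung epithelium. It read 12.24, 12.51 and 14.54 in NZW/LacJ smoke, against 13.54, 14.30 and 14.81 in C57BL/6J smoke. In air it read 12.24, 12.77 and 14.16 in NZW/LacJ, against 13.69, 14.38 and 14.64 in C57BL/6J. The signal was 2.52-fold lower in smoke (-1.33 ± 0.17, limma adjusted p = 8.12e-11), on 5 of 6 arrays, and 2.66-fold lower in air (-1.41 ± 0.15, adjusted p = 1.98e-13), on 8 of 8. Without the doubted libraries the differences were -1.66 in smoke, where the ranges no longer overlapped, and -1.51 in air. Cxcl2, a Cxcr2 ligand, was detected on no NZW/LacJ array, so no fold is given. It was called lower in air (adjusted p = 0.0244) and missed the threshold in smoke (adjusted p = 0.0614). It was called in both without the doubted libraries (adjusted p = 0.041 in smoke and 0.0412 in air), and the air call ended in 4 of 12 alternatives, with adjusted p up to 0.087. Cxcl1 was not called in either exposure.

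Of the eosinophil and type 2 chemokines, Ccl17, a ligand of Ccr4 made by dendritic cells, was lower in NZW/LacJ, 2.45-fold in smoke (-1.29 ± 0.28, adjusted p = 6.42e-05) and 2.50-fold in air (-1.32 ± 0.26, adjusted p = 1.4e-05). It read 6.42, 6.75 and 8.31 in NZW/LacJ smoke, against 7.27, 8.16 and 9.95 in C57BL/6J smoke, and 6.52, 7.22 and 7.98 in NZW/LacJ air, against 7.55, 8.43 and 9.91 in C57BL/6J air; all these ranges overlapped. The smoke ranges did not without the doubted libraries, with NZW/LacJ at 6.42 to 6.97, and Ccl17 was 2.96-fold lower in smoke and 2.50-fold lower in air. The eotaxin Ccl24 was detected on 5 of 8 NZW/LacJ air arrays and on no C57BL/6J air array, a bound of at least 1.03-fold higher (adjusted p = 0.00372), or 1.15-fold without the doubted library. In smoke Ccl24 was not called with all arrays, and was called higher without the doubted library there, at 0.56 ± 0.21 (adjusted p = 0.0216). Ccl11 was not called. Among the lymphoid chemokines, Ccl21a, which guides Ccr7-bearing cells and is made by lymphatic endothelium, was lower by -0.75 ± 0.16 in smoke (adjusted p = 4.62e-05) and -0.79 ± 0.15 in air (adjusted p = 5.38e-06). It read 10.96, 11.22 and 12.03 in NZW/LacJ smoke, against 11.43, 12.15 and 12.73 in C57BL/6J smoke, and without the doubted libraries the Ccl21a differences were -0.88 in smoke and -0.85 in air. Ccl19, Cxcl12 and Cxcl13 were not called, nor were the interferon-inducible Cxcl9 and Cxcl10.

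Cxcl14, a chemokine of epithelium and stroma, was higher in NZW/LacJ. It read 10.47, 11.53 and 11.63 in NZW/LacJ smoke, against 9.92, 10.68 and 11.39 in C57BL/6J smoke, and 10.37, 11.47 and 11.78 in NZW/LacJ air, against 9.85, 10.68 and 11.09 in C57BL/6J air. The difference was 0.63 ± 0.13 in smoke (adjusted p = 4.8e-05) and 0.78 ± 0.12 in air (adjusted p = 1.3e-07), and 0.80 and 0.92 without the doubted libraries, where the air ranges did not overlap. A second probe gave 0.51 ± 0.20 (adjusted p = 0.0288) and 0.30 ± 0.19 (adjusted p = 0.19), and median scaling ended the smoke call (0.49, adjusted p = 0.0627). Xcl1, a lymphocyte product that draws cross-presenting dendritic cells, was detected on no NZW/LacJ array, with bounds of at least 1.14-fold lower in smoke (adjusted p = 0.00103) and 1.12-fold lower in air (adjusted p = 0.000203), and of 1.12-fold and 1.15-fold without the doubted libraries. Cxcl16 was lower by -0.29 ± 0.10 (adjusted p = 0.0101) and -0.25 ± 0.09 (adjusted p = 0.0216). Its smoke call ended without NZW/LacJ smoke replicate 2 (-0.20, 0.128) or 3 (-0.24, 0.0658), its air call without air replicate 4 (-0.22, 0.0638), and both under median scaling (-0.45, 0.0633, and -0.18, 0.488); without the doubted libraries both held, at -0.39 and -0.28.

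Among the receptors, Cxcr4 was lower in NZW/LacJ, 1.64-fold in smoke (-0.71 ± 0.18, limma adjusted p = 0.000447) and 2.18-fold in air (-1.12 ± 0.16, adjusted p = 1.01e-08). It read 8.20, 8.70 and 9.53 in NZW/LacJ smoke, against 8.73, 9.55 and 9.99 in C57BL/6J smoke, and 8.19, 8.54 and 9.09 in NZW/LacJ air, against 8.88, 9.71 and 10.29 in C57BL/6J air; both pairs of ranges overlapped. Cxcr4 was 1.83-fold lower in smoke and 2.10-fold lower in air without the doubted libraries. Ccr7 was called lower in air, at -0.79 ± 0.25 (adjusted p = 0.00805), and at -0.73 without the doubted library (adjusted p = 0.0187), and was not called in smoke. Cxcr6, carried by resident T cells, was detected on 3 of 6 NZW/LacJ smoke arrays, against 2 of 28 in C57BL/6J smoke. It was called higher in smoke and not in air, at 0.55 ± 0.20 in smoke (adjusted p = 0.0166) and 0.69 ± 0.21 without the doubted library (adjusted p = 0.00403), a call that ended without NZW/LacJ smoke replicate 2 (0.46, 0.076) or 4 (0.39, 0.119). The smoke effects of Ccr7 and Cxcr6 were not called different between NZW/LacJ and C57BL/6J. Ccr6, Cxcr3, Cxcr5 and Cx3cr1 were not called.

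The growth factors of macrophages moved in opposite directions. Csf2 was lower: it read 4.37, 4.67 and 6.44 in NZW/LacJ smoke, against 6.01, 6.63 and 7.03 in C57BL/6J smoke, and 4.31, 4.64 and 6.36 in NZW/LacJ air, against 5.83, 6.65 and 7.62 in C57BL/6J air. In each NZW/LacJ group the 1 array that detected it was the doubted replicate 5. The difference was -1.70 ± 0.20 in smoke (limma adjusted p = 9.85e-12) and -1.76 ± 0.18 in air (adjusted p = 5.18e-14). Without the doubted libraries the ranges did not overlap in either exposure, and the bounds were at least 2.11-fold lower in smoke and 2.39-fold lower in air. Csf1 was higher, 1.93-fold in smoke (0.95 ± 0.19, adjusted p = 1.1e-05) and 3.96-fold in air (1.99 ± 0.17, adjusted p = 1.83e-18). Without the doubted libraries the Csf1 differences were 1.21 in smoke and 2.16 in air, and the air ranges did not overlap.

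**Figure D4:**
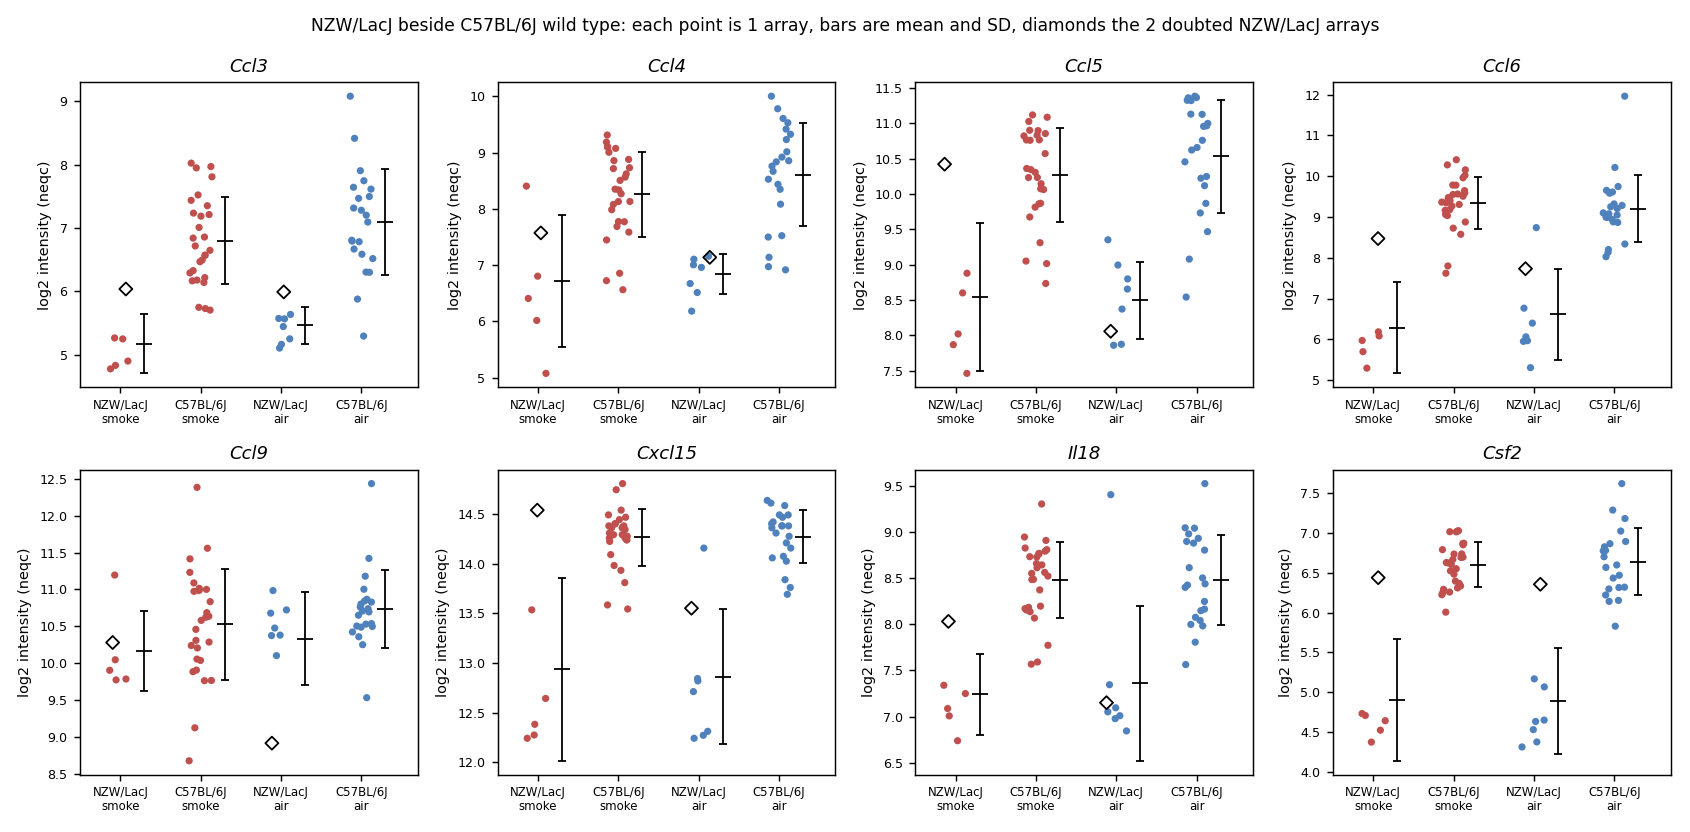
Normalized log2 signal of Ccl3, Ccl4, Ccl5, Ccl6, Ccl9, Cxcl15, Il18 and Csf2 on each NZW/LacJ and C57BL/6J array, in smoke and in air; the 2 doubted NZW/LacJ libraries are drawn as diamonds, and bars mark the mean and SD. For Csf2 they lie at 6.44 in smoke and 6.36 in air, among the C57BL/6J arrays, while the other NZW/LacJ arrays lie at 4.31 to 5.17.

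The interleukin-1 family cytokines were lower. Il18, made in inactive form by macrophages and epithelium, read 6.74, 7.17 and 8.03 in NZW/LacJ smoke, against 7.57, 8.56 and 9.30 in C57BL/6J smoke, 2.35-fold lower (adjusted p = 1.02e-06). In air it read 6.84, 7.07 and 9.40 in NZW/LacJ, against 7.56, 8.43 and 9.53 in C57BL/6J, 2.17-fold lower (adjusted p = 1.81e-06), on 7 of 8 arrays. Il1b, the main secreted form of interleukin 1, read 6.79, 8.04 and 8.94 in NZW/LacJ smoke, against 8.18, 9.83 and 11.13 in C57BL/6J smoke, 3.80-fold lower (adjusted p = 6.02e-05). Its air values were 7.08, 7.70 and 9.20 in NZW/LacJ, against 7.64, 9.90 and 12.09 in C57BL/6J, 3.84-fold lower (adjusted p = 1.65e-05). Each pair of ranges overlapped, for Il18 in smoke only through the doubted library. Il18 was 2.62-fold lower in smoke and 2.13-fold lower in air without the doubted libraries, and Il1b 4.22-fold lower in smoke and 4.38-fold lower in air. Tnf, detected on no NZW/LacJ smoke array, was called lower in smoke with no fold to give (adjusted p = 0.0414, and 0.0348 without the doubted library), a call that ended without NZW/LacJ smoke replicate 2 (adjusted p = 0.148), 3 (0.0578), 4 (0.0926) or 6 (0.0614).

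Neutrophil and alveolar macrophage markers were lower in the same lungs. Neutrophil markers, 5 kept of 7, summed to 10.04, 10.93 and 12.86 in NZW/LacJ smoke, against 12.57, 13.74 and 15.05 in C57BL/6J smoke, and to 10.53, 11.17 and 12.66 in NZW/LacJ air, against 11.89, 13.65 and 15.18 in C57BL/6J air. Alveolar macrophage markers, 4 kept of 8, summed to 11.34, 11.75 and 13.36 in NZW/LacJ smoke, against 13.08, 13.58 and 14.28 in C57BL/6J smoke, and to 11.35, 11.95 and 12.83 in NZW/LacJ air, against 13.05, 13.51 and 15.12 in C57BL/6J air. All 4 macrophage marker differences were negative, with a median of -1.338 in smoke and -0.807 in air. The largest in size was 6.325 in smoke and 5.405 in air. Whether the strains differ in sequence under the marker probes was not tested. Neutrophil markers were called lower for 4 of 5 in smoke and 5 of 5 in air, macrophage markers for 3 of 4 in both, where 24.9% of all genes were called lower in smoke and 18.5% in air. These counts were the same without the doubted libraries, and the highest sums in NZW/LacJ smoke were 11.74 for neutrophils and 12.52 for macrophages.

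T and natural killer cell markers, 6 kept of 9, summed to 9.40, 9.94 and 11.02 in NZW/LacJ smoke, against 9.63, 11.15 and 11.92 in C57BL/6J smoke, with 4 of 6 lower, and in air 5 were lower and 1 higher. B cell markers were lower for 3 of 5 in both exposures. Dendritic cell markers, 4 kept of 7, went both ways, with 1 higher and 1 lower in smoke and 1 higher and 2 lower in air. The 4 include the member Ccr7, which is 1 of the 2 lower in air. Type 2 cell markers, 7 of 7 kept, summed to 15.64, 15.76 and 16.53 in NZW/LacJ smoke, against 16.05, 16.36 and 16.55 in C57BL/6J smoke, with 4 of 7 lower, and 5 of 7 were lower in air. Heart muscle markers, 4 kept of 5, summed to 12.51, 13.26 and 14.55 in NZW/LacJ smoke, against 9.51, 12.08 and 12.89 in C57BL/6J smoke, with 3 of 4 higher, and 2 of 4 were higher in air. Club cell markers, 3 kept of 4, were higher for 2 in smoke and 1 in air. B cell markers were lower for 2 of 5 and heart muscle markers higher for 3 of 4 in air without the doubted libraries, and the other counts given here for T and natural killer, B, dendritic, type 2, heart muscle and club cell markers were the same. With all arrays, 24.9% of all genes were called lower and 25.8% higher in smoke, and 18.5% lower and 24.8% higher in air. The part of these cell types in the member differences was not tested.

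The smoke comparison of the strains changed when array numbering was fitted as a term. Apart from the doubted library, 4 of the 5 NZW/LacJ smoke arrays lie in the run 36 to 41, and no C57BL/6J array does. The 1 outside it read 4.42 for Ccl7 and 4.51 for Cxcr6, against NZW/LacJ smoke means of 6.90 and 5.74 within the run. With the doubted libraries kept, the NZW/LacJ smoke arrays outside the run were that array and the doubted one. In that fit, numbering and the doubted label cannot be fully told apart. With that run as a term and the doubted libraries kept, 9 members were called in smoke in place of 18, where 12.7% of all genes were called in place of 50.7%, and the Ccl7 and Cxcr6 differences turned to -0.29 and -0.46. Csf1 then gave 0.52 (adjusted p = 0.139), Cxcr4 -0.61 (0.0681), Ccl17 -0.96 (0.0695), Ccl21a -0.25 (0.44) and Cxcl16 -0.08 (0.747), and the calls of Xcl1 (adjusted p = 0.0783) and Tnf (0.551) ended. In air 16 members were called in place of 19 (33.9% of all genes in place of 43.3%), and the term ended the calls of Ccl7 (0.34, 0.352), Cxcl2 (0.0611) and Cxcl16 (-0.17, 0.17). With the run as a term and the doubted libraries left out, the smoke calls of Csf1, Cxcr4 and Ccl17 held. Those of Ccl21a (-0.33, adjusted p = 0.305), Cxcl16 (-0.22, 0.285), Xcl1 (0.0546) and Tnf (0.598) ended, and Ccl7 and Cxcr6 turned to -0.52 and -0.60. The air calls of Ccl7 (0.46, adjusted p = 0.218), Cxcl2 (0.087) and Cxcl16 (-0.22, 0.0698) ended too.

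Other genes of the same pathways were read from a list of 28 further ligands, 21 of them kept, and 33 receptors and decoys, 24 kept. None was called for smoke within any strain or genotype, for any difference of smoke effects, for Hhip+/- or Fam13a-/- against C57BL/6J in air, or for Hhip+/- against C57BL/6J in smoke. Between Fam13a-/- and C57BL/6J smoke, 1 of 21 ligands (4.76%) and 1 of 24 receptors (4.17%) were lower, beside 2.46% of all genes. These were Il12a, a subunit of interleukins 12 and 35, at -0.58 ± 0.15 (limma adjusted p = 0.00776), and Il1rap, the shared chain of interleukin 1 receptors, at -0.32 ± 0.09 (adjusted p = 0.0184). Between NZW/LacJ and C57BL/6J smoke, 12 of 21 ligands (1 higher, 11 lower) and 16 of 24 receptors (4 higher, 12 lower) were called, 57.1% and 66.7% beside 50.7% of all genes. In air, 12 ligands (3 higher, 9 lower) and 13 receptors (3 higher, 10 lower) were, 57.1% and 54.2% beside 43.3%. The counts without the doubted libraries were 13 ligands and 17 receptors in smoke (56.9% of all genes) and 12 ligands and 14 receptors in air (46.7%).

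The strain calls of smallest adjusted p among these named the following genes. Il6st, the shared signalling chain of the interleukin 6 family, was lower by -2.00 ± 0.21 in smoke (adjusted p = 6.12e-14) and -2.33 ± 0.19 in air (adjusted p = 2.5e-19). The epithelial alarmin Il33 differed by -1.44 ± 0.22 in smoke (adjusted p = 2.62e-08) and -1.48 ± 0.20 in air (adjusted p = 9.03e-10). Il34, the second ligand of Csf1r, was lower by -0.89 ± 0.13 in smoke (adjusted p = 3.66e-08), as were Tnfrsf1a, a receptor for Tnf, at -1.50 ± 0.25 (adjusted p = 2.59e-07), and Tgfb1 at -0.92 ± 0.16 (adjusted p = 1.32e-06). Ackr3, which scavenges Cxcl12 and was detected on 5 of 6 NZW/LacJ and 3 of 28 C57BL/6J smoke arrays, was higher by 1.17 ± 0.19 in smoke (adjusted p = 2.93e-07), and Ackr2, which removes inflammatory CC chemokines, by 1.31 ± 0.14 in air (adjusted p = 1.23e-13). Il10ra, at -1.67 ± 0.19, the platelet chemokine precursor Ppbp, at -1.36 ± 0.22, and the interleukin 1 antagonist Il1rn, at -0.86 ± 0.16, were lower in air (adjusted p = 1.82e-12, 2.92e-07 and 5.24e-06). Each of these calls held without the doubted libraries, with Il6st at -2.42 in smoke and -2.65 in air, Il33 at -1.83 (smoke) and -1.58 (air), and Tnfrsf1a at -1.88 (smoke).

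Ligands and receptors were set against each other across the C57BL/6J arrays, in 10 pairs with both partners kept, within smoke and within air. Of the 20 correlations, 5 had an adjusted p below 0.05 by permutation with 1e+05 resamples, adjusted over the 20. In smoke these were Il1b with the decoy receptor Il1r2, with r = 0.59 and rho = 0.59 over 28 arrays (raw permutation p = 0.00092 and 0.00112, adjusted p = 0.0092 and 0.00747, r = 0.51 without the 2 farthest arrays), and Cxcl9 with its receptor Cxcr3, with r = 0.51 and rho = 0.50 (raw permutation p = 0.00527 and 0.00704, adjusted p = 0.0264 and 0.0352, r = 0.44 without the 2). In air Il1b and Il1r2 gave r = 0.89 and rho = 0.86 over 22 arrays (raw permutation p = 1e-05 for both, the smallest these resamples can give, adjusted p = 2e-04, r = 0.85 without the 2). Cxcl10 and Cxcr3 gave r = 0.60 and rho = 0.69 in air (raw permutation p = 0.00271 and 0.00064, adjusted p = 0.0181 and 0.0064, r = 0.64 without the 2). Il18 and Il18r1 gave r = 0.56 and rho = 0.47 in air (raw permutation p = 0.00733 and 0.0262, adjusted p = 0.0293 and 0.0873, r = 0.49 without the 2), and r = 0.24 once the first component of the residuals was removed. Coefficients were positive for 7 of 10 pairs in smoke and 10 of 10 in air. Genes of an array share its RNA, cell makeup and detection, and whether a coefficient differs between smoke and air was not tested.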

How the data were processed

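Lung RNA was read, 1 sample an array, on single-colour Illumina bead arrays. The authors deposited an intensity and a detection p-value for each probe and array; by the values, the intensities were neither scaled between arrays nor background-subtracted, and the scanner steps are not stated in the labels. The authors also deposited a normalized log2 table whose method no label names; those values served as an alternative only. Sample groups came from the strain, genotype and treatment labels; titles of NZW/LacJ samples name C57, and the strain label was followed.

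The intensities were passed through neqc in limma 3.58.1 (R 4.3.3, with version 1.17.8 of data.table), which corrects background from the detection p-values, adds an offset of 16, quantile-normalizes and takes log2. Of 25697 probes, 15363 had a detection p below 0.01 on at least 6 arrays, and the brightest stood for each gene. Platform annotation gave 23978 probes a single symbol, none several and 1719 none; symbols were updated by gene ID (23962), accession (9) or kept (7) with RefSeq gene names of GRCm38.p6. A model of 8 group means (lmFit, eBayes, 101 residual degrees of freedom) gave 13 two-sided contrasts, adjusted by Benjamini-Hochberg over 11346 genes. Every adjusted p is limma's unless a permutation is named. For a probe that a whole group failed to detect, the fold is a bound. It sets the brighter group's mean against a floor, on each array the larger of the probe's signal and the lowest signal among detected probes. The fit was tested on simulated data with 200 genes changed.

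The members, lists and tests were chosen with earlier results of these data known. Any member could be named; full values were given for called members or, where none was called, for the 3 smallest p-values, and up to 6 called genes of the wider pathway list per comparison. Array number and signal over background limit the precision. Alternatives tried were the authors' table, median scaling, no background correction, 2 other filters, the compared groups alone, array weights, a residual component, and leaving out arrays.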

Additional observations from a re-analysis of the deposited data

Results flagged for a closer look

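In groups of 4 to 10 arrays, the highest or lowest array stood far from the rest (Dixon's test) in 13 of 111 member and group pairs, 11.7%, where chance alone gives about 1 in 20. Of these, 8 lay on the NZW/LacJ libraries numbered replicate 5, the 2 that scored as C57BL/6J on the strain scale. On smoke replicate 5, Ccl6 read 8.47, against 5.30 to 6.19 on the other NZW/LacJ smoke arrays, Ccl17 read 8.31, against 6.42 to 6.97, Cxcl2 read 5.23, against 4.52 to 4.74, and Csf2 read 6.44, against 4.37 to 4.73. On air replicate 5, Csf2 read 6.36, against 4.31 to 5.17 on the other NZW/LacJ air arrays, Csf1 read 7.32, against 8.41 to 9.01, Cxcl14 read 10.36, against 11.21 to 11.78, and Ccl9 read 8.91, against 10.10 to 10.98. For Ccl6, Ccl17, Cxcl2, Csf2, Csf1 and Cxcl14, these values lie within the C57BL/6J range of the same exposure.

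Elsewhere in NZW/LacJ, Il18 read 9.40 on air replicate 1, against 6.84 to 7.35 on the others, and Ccl9 read 11.19 on smoke replicate 1, against 9.77 to 10.28. In Fam13a-/- air, replicate 5 read 5.33 for Ccl3, against 6.62 to 7.21 on the others, and 4.44 for Xcl1, against 5.54 to 5.93, while replicate 4 read 8.75 for Ccl19, against 7.36 to 7.83.

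The smoke effect on Csf1 in NZW/LacJ differed from that in C57BL/6J by -1.04 (limma adjusted p = 0.0403). For Ccr7, all 13 Fam13a-/- smoke arrays lay below the Fam13a-/- air mean and all 6 NZW/LacJ smoke arrays above the NZW/LacJ air mean, effects of -0.78 and 0.53 whose difference, -1.31 with Fam13a-/- first, was not tested.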

How the results depend on the processing

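Over 13 settings and 60 refits that each left out 1 array (all 59 of Hhip+/-, Fam13a-/- and NZW/LacJ, and of C57BL/6J only smoke replicate 6), the counts of members called were compared. Outside the refits they stayed within 1.5 times their value in 113 cases and moved in 29. Single members kept direction and side of the threshold in 687 cases, lost the call in 33, gained it in 12 and reversed in 4. Smoke within NZW/LacJ gave 1 member (Csf1) in place of 0 under the authors' table, no background correction, array weights, the residual component, without arrays under 45% detected and with numbers 36 to 41 as a term. Smoke within Fam13a-/- gave 0 in place of 1 under median scaling and with no filter on dim probes, 2 with the residual component and 5 with array weights, and smoke within Hhip+/- gave 2 in place of 0 with array weights. The NZW/LacJ smoke effect gave 0 in place of 1 under median scaling, with the compared groups alone, and without the 2 doubted libraries with numbers 36 to 41 as a term. The Fam13a-/- smoke effect gave 1 in place of 0 with array weights or the residual component. Between Hhip+/- and C57BL/6J smoke the count of 1 became 0 under median scaling, 2 under the authors' table and with no background correction, 3 with the residual component and 4 with array weights. Between Fam13a-/- and C57BL/6J smoke it became 0 under median scaling, and 2 with detection on at least 55 arrays, the compared groups alone, array weights or the residual component. In air, array weights gave 1 member in place of 0 for Hhip+/- and 2 for Fam13a-/-. Between NZW/LacJ and C57BL/6J smoke, numbers 36 to 41 as a term gave 9 in place of 18. The term reversed Ccl7 (-0.29) and Cxcr6 (-0.46), and without the doubted libraries as well (-0.52 and -0.60). Outside that run lay 1 undoubted NZW/LacJ smoke array. Of the calls over all genes between the strains in smoke, 50.9% were higher, and 37.7% under median scaling. Median scaling moved the median of all genes by -0.099 there and by at most 0.155 in any comparison. Leaving out 1 array gave 0 to 1 members for smoke within Fam13a-/-, 0 to 1 for smoke within NZW/LacJ, 0 to 1 for the NZW/LacJ smoke effect, 0 to 2 between Hhip+/- and C57BL/6J smoke, 1 to 2 between Fam13a-/- and C57BL/6J smoke, and 14 to 20 in smoke and 17 to 20 in air between the strains. The cause of these shifts was not tested. No paired analysis was possible because the titles number the arrays in 1 run across the groups, so no number is shared.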
